A study of Mus musculus with 8 samples.

Results

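Activated CD4 T cells of wild-type (WT) mice that had received dibutyryl cyclic AMP (db-cAMP) were compared with WT cells that had received vehicle. db-cAMP enters cells and acts there like cyclic AMP, a second messenger. Transcripts were measured on Affymetrix arrays, 2 for each group, and these 4 arrays were taken from the 8 of the study by their titles. CD4+ cells of 8-week-old mice had been isolated from spleen by autoMACS, an automated magnetic sorter. All cells, treated and control alike, were stimulated with antibodies against CD3 and CD28 for 15 h, and db-cAMP or vehicle was present for the final 3 h. The other 4 arrays came from mice lacking IFN-γ receptor 1, 2 with vehicle and 2 with db-cAMP, and they informed only the estimate of the variance. The titles call the arrays of a group biological replicates. Neither separate mice or cultures nor the strain is stated in the labels read here, so p-values measure the spread between these samples, which may be technical.

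Cyclic AMP is made by adenylyl cyclases when receptors coupled to the stimulatory G protein Gs are engaged, and phosphodiesterases degrade it. Its main effector is protein kinase A, which phosphorylates the transcription factor CREB at cAMP response elements and releases CREB coactivators from the salt-inducible kinases. In T cells protein kinase A is known to dampen signalling from the antigen receptor, and prostaglandin E2 and adenosine raise cyclic AMP in these cells.

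Signals are linear MAS5 values scaled to a common mean on each array, so the total amount of mRNA per cell was not measured, and in such bulk samples fewer cells of a type and less RNA per cell cannot be told apart. Replicate arrays correlated at 0.967 with vehicle and 0.961 with db-cAMP over 12091 genes, which are not independent replicates. All 13 T cell identity genes measured lay above the array median on each of the 4 arrays, and their summed signal ran from 111140 to 120440. Of these, 4 rose and 4 fell, among them Cd247, the zeta chain of the T cell receptor complex, at 0.71 and Cd3e, another CD3 chain, at -0.42 on the log2 scale. Cd4 gave 340 and 539 with vehicle and 390 and 439 with db-cAMP, and its change of -0.05 did not pass the test. Among markers of other cells, the summed signal of 13 B cell genes was 12233 and 13692 with vehicle and 8780 and 8486 with db-cAMP. Most of it came from the immunoglobulin gene Ighm, at 9449 and 10767 with vehicle and 5278 and 4563 with db-cAMP, while Cd79a stayed at or below the array median. The lower sum does not describe the other B cell genes. Of 12 tested, Ighm alone was called lower and 1 was called higher, with a median log2 change of 0.21. As the mean of its probe sets Ighm stood at 0.25 on the log2 scale and was not called. Summed signals of 6 NK cell markers were 686 and 644 against 1141 and 1093, with Ncr1 and Klra8 at or below the array median, and 12 macrophage and neutrophil markers overlapped at 626 and 503 against 665 and 490, with 8 of 12 at or below it. The 2 CD8 T cell markers gave 499 and 516 against 367 and 433, and the 7 stromal and endothelial markers 395 and 339 against 491 and 619. Dendritic cell markers (295 and 338 against 241 and 530) overlapped, and the 6 erythroid and platelet markers gave 275 and 261 against 304 and 403. Control signals also differed between the groups. The 18S rRNA probe sets stood at 26569 and 23386 with vehicle and at 35586 and 34507 with db-cAMP, the poly-A controls at 766 and 869 against 970 and 1103, and the hybridization controls overlapped. Whether these markers and controls played a part in any result below was not tested.

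After 3 h of db-cAMP, 4233 of 12091 genes differed between the groups in limma at an adjusted p under 0.05, which is 35% of the genes tested. Of these, 1984 were higher (16.4%) and 2249 lower (18.6%). A rise of 2-fold or more was called for 635 genes (5.25%) and a fall of that size for 536 (4.43%). Rises outnumbered falls among the larger changes, with 162 rises against 84 falls of at least 4-fold, 36 against 9 of at least 8-fold and 8 against 1 of at least 16-fold. These shares are the background for every count of a gene list below. With 2 arrays a group, the db-cAMP arrays lay wholly above the vehicle arrays for 32.2% of genes and wholly below for 30.9%. The median log2 change over all genes was 0.01, where a log2 change of 1 is a 2-fold difference and positive values are higher with db-cAMP. Called-higher genes carried 25.9% and 26.3% of the summed signal of the genes tested on the vehicle arrays and 36.6% and 37.1% on the db-cAMP arrays, and called-lower genes 25.9% and 25% against 16.3% and 15.4%. Both vehicle arrays lay at or below the array median for 80 of the 635 larger rises, and both db-cAMP arrays did so for 77 of the 536 larger falls. The plot of change against mean signal shows that calls were fewest among dim genes, 96 higher and 61 lower among the 3023 genes of lowest mean signal against 789 and 987 among the 3023 of highest.

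**Figure D1:**
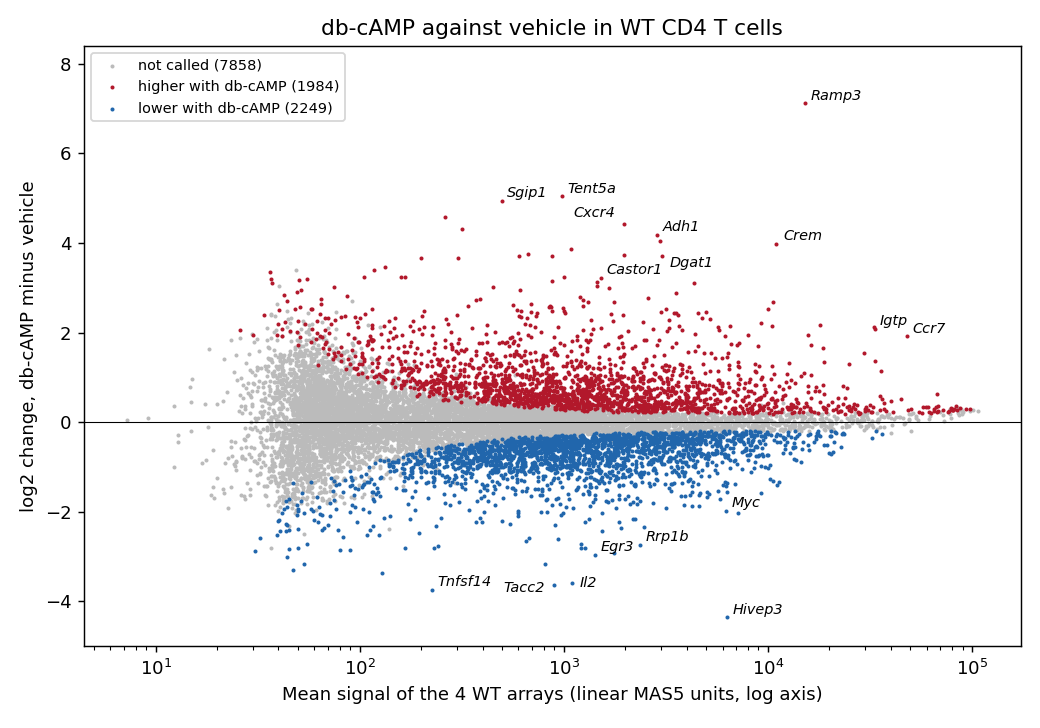
Each point is one of 12091 genes, with the mean signal of the 4 WT arrays on the horizontal log axis (linear MAS5 units) and the log2 change, db-cAMP minus vehicle, on the vertical axis. Red points are the 1984 genes called higher, blue the 2249 called lower and grey the others, and Ramp3 lies highest at 7.12 and Hivep3 lowest at -4.35.

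Ramp3 showed the largest rise. It encodes a receptor activity-modifying protein that partners calcitonin-family receptors, and it gave 249 and 180 with vehicle and 29412 and 30888 with db-cAMP, a 139-fold difference (log2 7.12 ± 0.14, limma adjusted p = 2.91e-12). Both db-cAMP arrays stood far above both vehicle arrays. Its receptor partner Calcrl went the other way, at 324 and 385 with vehicle and 207 and 153 with db-cAMP (log2 -0.97 ± 0.21, limma adjusted p = 0.00237), a call that the mean of its probe sets did not give (-0.45). The chemokine receptor Cxcr4, which senses CXCL12, gave 176 and 167 with vehicle and 3956 and 3600 with db-cAMP, and the alcohol dehydrogenase Adh1 gave 279 and 308 with vehicle and 5511 and 5386 with db-cAMP. Neither gene's groups overlapped, with log2 changes of 4.42 ± 0.12 and 4.19 ± 0.11 (limma adjusted p = 3.67e-11 and 2.7e-11).

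The other leading rises came from several functions. Tent5a, a cytoplasmic poly(A) polymerase, rose by 5.04 ± 0.30 on the log2 scale, the endocytic adaptor Sgip1 by 4.95 ± 0.37, and Vps37b, a subunit of the ESCRT-I sorting complex, by 4.04 ± 0.11. For Tent5a and Sgip1 both vehicle arrays were dim (86.4 and 31 and 19.4 and 34.2), so the size of their fold changes depends on the offset added before the logarithm. A pair of triglyceride synthesis enzymes rose together. Gpat3, a glycerol-3-phosphate acyltransferase, gave 83.7 and 91.5 with vehicle and 1145 and 1353 with db-cAMP, and Dgat1, which makes triglyceride from diacylglycerol, gave 438 and 421 with vehicle and 5537 and 5790 with db-cAMP. Castor1, the cytosolic arginine sensor upstream of mTORC1, rose from 242 and 341 to 2907 and 2576 (log2 3.23 ± 0.20, limma adjusted p = 4.16e-08). Among transcription factors the rises were led by Klf4, at 135 and 133 with vehicle and 1998 and 2070 with db-cAMP (log2 3.87 ± 0.16), Pou6f1, a POU domain factor, at 3.72, Epas1, which encodes HIF-2α, at 3.66, Mxd1, a MYC antagonist, at 3.25, and Tfeb, a regulator of lysosomal genes, at 3.24. The linker histone H1f2 rose by 3.72 on the log2 scale and the integrin chain Itgb3 by 3.24 ± 0.68, although Itgb3 gave 6.48 and 77.4 on the vehicle arrays, a wide spread for so dim a gene, and the mean of its probe sets was not called (1.31).

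Hivep3, a large zinc finger transcription factor, showed the largest fall. It gave 11919 and 12276 with vehicle and 615 and 561 with db-cAMP, a 20.4-fold lower signal with db-cAMP (log2 -4.35 ± 0.10, limma adjusted p = 1.13e-11). It was the only gene that fell by 16-fold or more. These signals are those of its brightest probe set, and of its 4 other tested probe sets 2 had the same sign and 1 the same call, with log2 changes from -3.06 to 0.49. Il2, the T cell growth factor, gave 1815 and 2250 with vehicle and 126 and 210 with db-cAMP, and Tnfsf14, the TNF-family ligand LIGHT, gave 370 and 478 with vehicle and 39.8 and 17.1 with db-cAMP. The next falls included Tacc2, a coiled-coil protein of the TACC family, at -3.63 on the log2 scale, the metalloprotease Adamts6 at -3.17 and the carbonic anhydrase Car12 at -2.76. Ppargc1b, which encodes PGC-1β, a coactivator of mitochondrial genes, gave 246 and 234 with vehicle and 20.5 and 16.6 with db-cAMP (log2 -3.36 ± 0.30, limma adjusted p = 1.32e-06). Per2, a component of the circadian clock, gave 154 and 135 with vehicle and 24.4 and 8.88 with db-cAMP, and it stands in the list of CREB targets as the member that fell most.

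**Figure D2:**
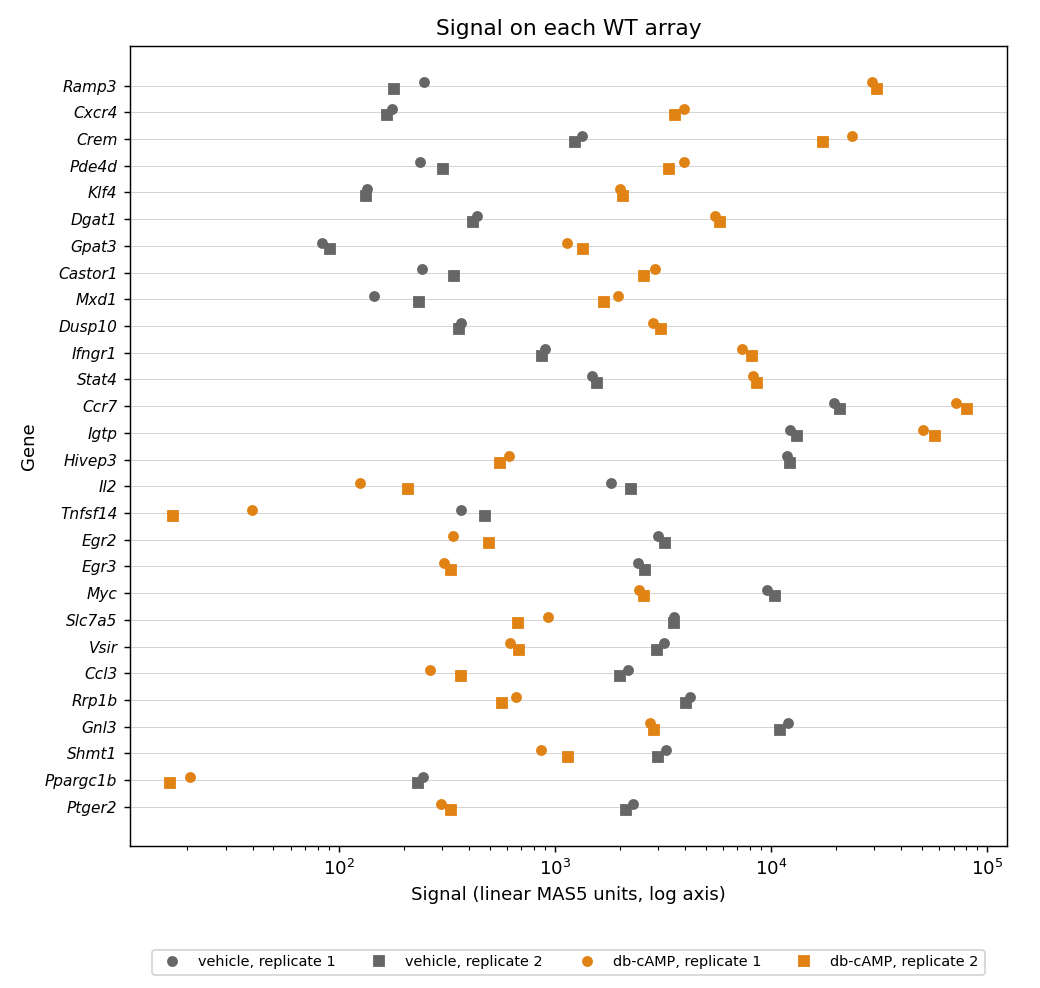
Signal of 28 genes named in the text on each of the 4 WT arrays, in linear MAS5 units on a log axis, with vehicle in grey and db-cAMP in orange and replicates 1 and 2 as circles and squares. In every row the 2 vehicle arrays lie apart from the 2 db-cAMP arrays, above all for Ramp3 (249 and 180 against 29412 and 30888) and Hivep3 (11919 and 12276 against 615 and 561). The genes were picked after their values were seen. Over all genes tested the groups did not overlap for 32.2% with db-cAMP above and 30.9% with it below.

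Genes listed as CREB targets were mostly higher. The list was written with earlier results of these data known, and it includes Ramp3, the largest rise of all. Its shares therefore describe the list and are no test. Of 32 tested, 22 rose (68.8%, against 16.4% of all genes), 17 of them by 2-fold or more, and 2 fell, with a median log2 change of 1.36 against 0.01 over all genes. Crem, whose short product ICER represses CREB targets, rose from 1336 and 1241 to 23699 and 17499 (log2 3.98 ± 0.14, limma adjusted p = 2.6e-10). Fosl2, an AP-1 subunit, gave 332 and 368 with vehicle and 2002 and 2275 with db-cAMP, and Rgs2, a brake on G protein signalling, gave 2063 and 2169 with vehicle and 9251 and 9306 with db-cAMP. Smaller rises were those of Sik1, the salt-inducible kinase that restrains CREB coactivators, at 1.41 ± 0.21 on the log2 scale, of Nr4a3, an orphan nuclear receptor, at 1.05 ± 0.069, and of Fos at 0.99 ± 0.12. Beside Per2, the glucose transporter Slc2a3 fell, at -0.57 ± 0.13 (limma adjusted p = 0.00416), although the mean of its probe sets was 0.27 and not called, as that of Nr4a3 was not (0.61). Of the 15 CREB family, coactivator and SIK genes, 5 rose and 0 fell in limma, 0 others were lower at an unadjusted p under 0.05, and 1 fell when db-cAMP replicate 2 of WT was omitted. Creb3l2 and Creb3, factors of the endoplasmic reticulum and Golgi, rose by 0.85 and 0.64 on the log2 scale.

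The full palindromic cAMP response element TGACGTCA was rare in these promoters in the RefSeq table (GRCm38.p6, 250 bases before to 50 after each start). Of the 32 listed CREB targets tested, 26 had a promoter and 3 held the element, namely Dusp1, Prkar1a, a protein kinase A subunit that rose by under 2-fold, and Sst, somatostatin, which was not called. Of 17 listed CREB targets that rose 2-fold or more, 14 had a promoter in the table and 1 of them, Dusp1, held the element, and of the 25 largest rises 18 had a promoter and 0 held it. Counted by gene, 340 of 9824 genes tested held it (3.46%), a smaller share than the 3 of 26 listed targets. The share was 2.32% of genes called higher by 2-fold or more and 3.11% of those called lower by 2-fold or more. Counted by promoter, 2.91% held it over all genes tested, against 1.77% for genes called higher by 2-fold or more and 2.49% for genes called lower by 2-fold or more. The shorter letters TGACGT, searched on both strands and contained in the full element, stood in 11.4% of promoters of the genes tested, 12.4% of the larger rises and 12.5% of the larger falls. Dusp1 encodes a phosphatase that inactivates MAP kinases. Btg2, an antiproliferative factor outside the list whose sequence was chosen after its values were seen, held the same element. Other genes outside the list held it and rose more than Btg2. The windows of Dusp1 and Btg2 are shown with the element in capitals, upstream of the start. Both genes rose, but the full element stood in 12 promoters of the larger rises and in 13 of the larger falls.
Dusp1, GRCm38.p6 chr17:26508582-26508641, minus strand: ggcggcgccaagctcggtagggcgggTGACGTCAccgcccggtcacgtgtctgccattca
Btg2, GRCm38.p6 chr1:134079288-134079347, minus strand: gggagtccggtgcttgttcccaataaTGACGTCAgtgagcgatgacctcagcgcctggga
Dusp1 gave 965 and 905 with vehicle and 2875 and 3100 with db-cAMP (log2 1.67 ± 0.099, limma adjusted p = 2.57e-08), and Btg2 gave 1001 and 834 with vehicle and 2381 and 2480 with db-cAMP (log2 1.41 ± 0.12). A match describes the letters only, and its absence covers only these windows.

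Among phosphodiesterase genes, which include those of the enzymes that remove cyclic AMP, several rose. Of 11 tested, 6 rose (54.5%, against 16.4% of all genes) and 2 fell (18.2%, against 18.6%), with a median log2 change of 0.77. Another 8 of the 19 on the array did not pass the filter on low signals, and with them the median was 0.24. Pde4d gave 238 and 305 with vehicle and 3955 and 3383 with db-cAMP and Pde4b gave 567 and 620 with vehicle and 2540 and 3232 with db-cAMP, both members of the cAMP-specific family 4. Pde8a, another cAMP-specific enzyme, rose by 1.79 ± 0.22 on the log2 scale, Pde3b by 1.54 ± 0.10 and Pde7a by 0.65 ± 0.14. Pde2a rose by 0.77 ± 0.24, and it was not called when vehicle replicate 1 (0.57), db-cAMP replicate 1 (0.72) or db-cAMP replicate 2 (0.82) of WT was omitted. The falls were Pde6d, a prenyl-binding chaperone subunit, at -0.81, and Pde12, a mitochondrial enzyme that trims RNA, at -0.33, not called when vehicle replicate 2 (-0.25) or db-cAMP replicate 1 (-0.25) of WT was omitted. With the mean of all probe sets per gene, 2 rises were called, and Pde4d, Pde4b and Pde8a then stood at 1.20, 0.86 and 1.10, not called.

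The genes that make and receive the cAMP signal moved both ways. Of 27 Gs-coupled receptor, G protein and adenylyl cyclase genes, 11 rose (40.7%) and 5 fell (18.5%, near the 18.6% of all genes). Ramp3, a receptor partner, is counted among these rises. The median log2 change of 0.18 was not stable, at 0.33, 0.31, 0.43 and 0.28 with vehicle replicate 1, vehicle replicate 2, db-cAMP replicate 1 and db-cAMP replicate 2 of WT omitted in turn, and 0.47 with the filters on the mean signal or on the WT arrays. Ptger2, the prostaglandin E2 receptor EP2, gave 2303 and 2133 with vehicle and 297 and 332 with db-cAMP (log2 -2.80 ± 0.100, limma adjusted p = 3.26e-10), whereas Ptger4, the receptor EP4, rose by 0.47 ± 0.077. The groups of Ptger2 did not overlap. Gpr65, a proton-sensing receptor that couples to Gs, gave 2217 and 2202 with vehicle and 6525 and 6730 with db-cAMP (log2 1.58 ± 0.073). Adenylyl cyclases diverged, with Adcy6 at 228 and 344 with vehicle and 732 and 884 with db-cAMP and Adcy7 at -0.80 ± 0.12 on the log2 scale (limma adjusted p = 3.43e-05 and 0.000157). Gnas, which encodes the Gs α subunit, rose by 0.54 ± 0.064. As means of probe sets Adcy7 (-0.82) and Gnas (0.18) were not called. Between 1 and 3 of the 5 falls were called as the mean of probe sets, in the 4 WT arrays alone, without the intensity trend, or with vehicle replicate 1 or either db-cAMP array of WT omitted. Of 19 protein kinase A, EPAC and anchoring protein genes 3 rose and 3 fell, 15.8% each way, near the 16.4% and 18.6% of all genes, and 1 fall was called without the intensity trend. The catalytic subunit Prkaca rose by 0.59 ± 0.11 and the regulatory subunit Prkar1a by 0.47 ± 0.066, while the regulatory subunit Prkar2a stood at -0.64 ± 0.15, and both regulatory subunits lost the call as means of probe sets (0.30 and -0.45). Akap2, an anchoring protein, rose from 106 and 82.9 to 414 and 484. Of 11 RGS genes, which speed the shut-off of G proteins, 2 rose (18.2%, near the 16.4% of all genes) and 4 fell (36.4%). Rgs2 and Rgs10 rose by 2.13 and 0.89 on the log2 scale, and Rgs16, Rgs1 and Rgs3 stood at -1.78, -1.38 and -0.98.

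The antigen receptor and its proximal signalling genes split almost evenly, 11 higher and 12 lower of 33 (median log2 change -0.05). The rises included Grap2, the adaptor GADS, at 1.86 ± 0.22, the Tec-family kinase Txk at 1.79 ± 0.21, the ubiquitin ligase Cblb, a restraint on T cell activation, and Nck2, an adaptor, at 1.11 ± 0.070 and 1.45 ± 0.15 on the log2 scale. Among the falls Ptpn6, the phosphatase SHP-1, gave 6737 and 6033 with vehicle and 2196 and 2102 with db-cAMP. The kinase Zap70 and its adaptor substrate Lcp2 (SLP-76) stood at -0.74 and -0.78 on the log2 scale. Grap2 and Lcp2 are binding partners, and their transcripts changed in opposite directions.

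Transcription factors downstream of the receptor also diverged within families, as the plot of family members shows. Nfatc1 gave 2135 and 2078 with vehicle and 795 and 738 with db-cAMP and Nfatc2 gave 816 and 817 with vehicle and 399 and 216 with db-cAMP, whereas Nfatc3 rose by 0.71 ± 0.083 on the log2 scale. All 3 encode NFAT factors that calcium and calcineurin activate, and Nfatc2 was not called as the mean of its probe sets (-0.42). The calcium-dependent kinase Camk4 rose from 239 and 239 to 1331 and 1562 (log2 2.56 ± 0.14, limma adjusted p = 1.26e-08). Of 20 AP-1, ATF and MAF factors 6 rose and 6 fell. Jund, Jun and Junb rose by 1.02, 0.94 and 0.72 on the log2 scale, while Fosl1, Maf and Batf stood at -2.80, -1.02 and -0.87. Jund, Jun and Maf were not called as means of probe sets (0.25, 0.57 and -0.26). Fosl1 and Fosl2 are close relatives and lay on opposite sides, 366 and 437 with vehicle and 31.3 and 86.6 with db-cAMP for Fosl1. NF-κB pathway genes showed 12 rises and 6 falls of 24. The inhibitors of the pathway did not move as one, since Tnfaip3, the ubiquitin-editing enzyme A20, gave 1146 and 1057 with vehicle and 6112 and 5851 with db-cAMP, Tnip1 rose by 0.77 ± 0.084, and Tnip2, Nfkbid and Nfkbie stood at -1.81, -1.29 and -0.48. Malt1, the paracaspase that links the receptor to NF-κB, fell to 797 and 815 from 1743 and 1790, and Prkcq, protein kinase C θ, stood at -0.81 ± 0.081.

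KLF and EGR zinc finger factors went in opposite directions. Klf4, Klf6, Klf2, Klf3, Klf13 and Klf7 rose, by 3.87, 2.25, 1.84, 1.83, 1.06 and 0.85 on the log2 scale. Klf16 fell, at -0.57, a call lost without WT db-cAMP replicate 1 (-0.39). Egr1, Egr2 and Egr3, early genes of antigen receptor signalling, stood at -1.80, -2.91 and -2.96. Egr2 gave 2989 and 3247 with vehicle and 339 and 495 with db-cAMP. Of the 18 genes of this list 8 rose (44.4%, against 16.4% of all genes) and 4 fell (22.2%, against 18.6%). MAP kinase phosphatases split as well. Dusp10, Dusp1, Dusp5 and Dusp4 rose, with Dusp10 at 369 and 360 with vehicle and 2855 and 3086 with db-cAMP, while Dusp6, a phosphatase of ERK, gave 3201 and 3226 with vehicle and 646 and 592 with db-cAMP, and Dusp2 stood at -0.68 on the log2 scale. Spry1, an inhibitor of RAS signalling, stood at -1.31 ± 0.073. In the MAP kinase list 9 of 28 genes rose and 8 fell, and 5 of the falls were called as the mean of probe sets.

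**Figure D3:**
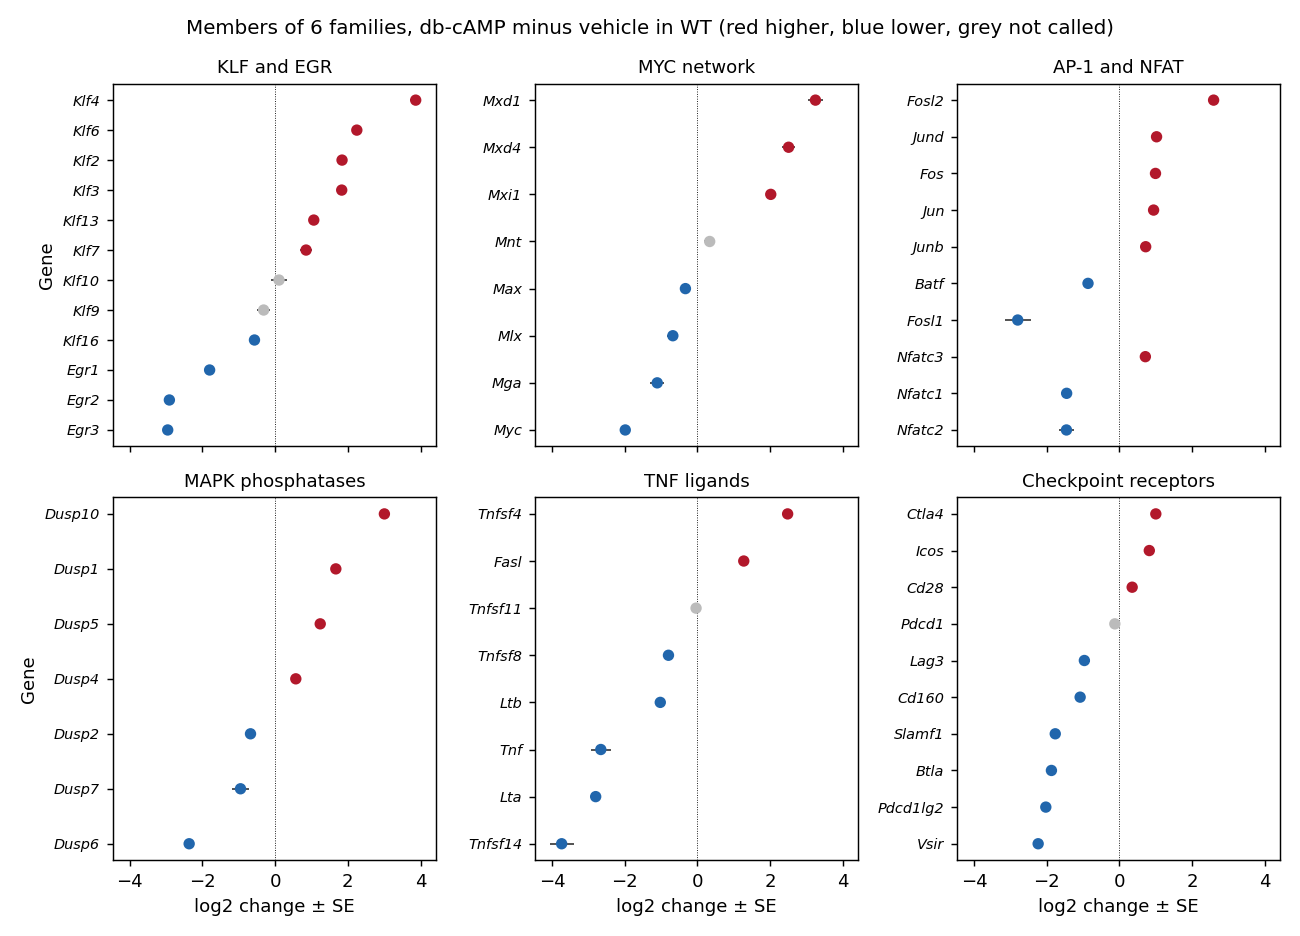
Log2 change, db-cAMP minus vehicle, with the standard error of the fit as a bar, for members of 6 families, with red for called higher, blue for called lower and grey for not called. Within every panel members lie on both sides of 0, such as Klf4 at 3.87 and Egr3 at -2.96, or Tnfsf4 at 2.49 and Tnfsf14 at -3.73.

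Phosphatidylinositol 3-kinase and FOXO pathway genes leaned higher, 13 of 33 called higher and 2 lower (median log2 change 0.22). Of the 2 lower, Pdk1 encodes a metabolic kinase and is not a kinase of this pathway, though the list counts it. Phlpp1, a phosphatase of AKT, gave 324 and 304 with vehicle and 1708 and 1739 with db-cAMP and Pik3r1, the regulatory subunit p85α, gave 552 and 587 with vehicle and 2431 and 2510 with db-cAMP. Foxo1, the factor that keeps naive T cell genes on, rose by 1.01 ± 0.10 on the log2 scale, and the stress-inducible mTORC1 inhibitors Sesn3 and Ddit4 by 1.69 ± 0.11 and 1.09 ± 0.094. The falls were the pyruvate dehydrogenase kinase Pdk1, at -1.31 ± 0.091, and the adaptor Trat1, at -0.54 ± 0.16, not called when vehicle replicate 2 (-0.35) or db-cAMP replicate 2 (-0.53) of WT was omitted.

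Genes of T cell activation were mostly lower. Of 28 tested, 16 fell (57.1%, against 18.6% of all genes) and 5 rose (17.9%, near the 16.4% of all genes). The median log2 change was -0.72 (-0.46 as the mean of probe sets). Cd69, an early surface marker, gave 6602 and 6566 with vehicle and 2509 and 2559 with db-cAMP and Irf4, a transcription factor of effector differentiation, gave 15536 and 16163 with vehicle and 9680 and 9867 with db-cAMP. Tfrc, the transferrin receptor, fell by 1.70 on the log2 scale. The rises were Ctla4, whose signals are given with the checkpoint genes, and Tnfrsf18, Tnfrsf9, Icos and Rel, at 1.33, 0.88, 0.82 and 0.81, which are surface receptors of activated and regulatory T cells and an NF-κB subunit, and Tnfrsf9 was not called as the mean of its probe sets (0.12).

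Several cytokine and chemokine genes fell. Of 22 cytokine genes 6 fell (27.3%, against 18.6% of all genes) and 3 rose (13.6%, against 16.4%). Of 15 chemokine ligands 6 fell (40%) and 2 rose (13.3%), and 1 rise was called when any one of the 4 WT arrays was omitted. Tnf gave 1305 and 941 with vehicle and 118 and 246 with db-cAMP and Lta, lymphotoxin α, gave 2146 and 2092 with vehicle and 294 and 307 with db-cAMP, while Ltb, its partner chain, stood at -1.02 on the log2 scale. The inflammatory chemokines Ccl3 and Ccl4 gave 2186 and 2014 with vehicle and 266 and 368 with db-cAMP and 2788 and 2420 with vehicle and 496 and 459 with db-cAMP, and Xcl1 and Ccl1 stood at -1.62 and -1.19. Every one of the 6 cytokine falls and 6 chemokine falls was 2-fold or more. Osm, oncostatin M, went against them and rose from 237 and 305 to 1156 and 968 (log2 1.96 ± 0.20, limma adjusted p = 4.2e-06), as did Tgfb1, at 1.06, Il16, at 0.71 (not called as the mean of its probe sets, 0.53), and the chemokine Cxcl10, at 2.80. The other chemokine that rose was Ccl22, at 0.31, not called when vehicle replicate 1 (0.33), vehicle replicate 2 (0.30), db-cAMP replicate 1 (0.31) or db-cAMP replicate 2 (0.31) of WT was omitted. TNF-family ligands fell in 5 of 13 cases (38.5%) and rose in 2 (15.4%, near the 16.4% of all genes). Tnfsf4, the OX40 ligand, gave 283 and 312 with vehicle and 1901 and 1501 with db-cAMP, and Fasl, the ligand of the death receptor FAS, gave 2258 and 2148 with vehicle and 5346 and 5354 with db-cAMP. For TNF receptors the balance was 7 rises (38.9%) and 2 falls (11.1%, below the 18.6% of all genes) of 18. Tnfrsf1a, a receptor of TNF, stood at 1.22 and Cd27 at -0.60. The other fall, that of Tnfrsf21, at -1.25, was not called when vehicle replicate 1 (-0.998), vehicle replicate 2 (-1.51) or db-cAMP replicate 2 (-0.94) of WT was omitted, nor with any one knockout array omitted.

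Receptor chains for cytokines leaned higher, 11 of 27 called higher (40.7%, against 16.4% of all genes) and 6 lower (22.2%, against 18.6%). Their median log2 change was 0.64, and 0.27 with vehicle replicate 2 of WT omitted. Ifngr1 and Ifngr2, the chains of the IFN-γ receptor, gave 905 and 873 with vehicle and 7319 and 8201 with db-cAMP and 194 and 191 with vehicle and 984 and 1041 with db-cAMP. Rises were also called for the type I interferon receptor chain Ifnar1 at 1.96 ± 0.12, for Tgfbr2 and Tgfbr3, receptors of TGF-β, at 1.45 and 1.70 (not called as means of probe sets, 1.01 and 1.11), for Il7r, which sustains naive T cells, at 1.40 ± 0.19, and for Il2rb at 1.48 ± 0.15 on the log2 scale. Falls were those of Il15ra, Il12rb1, Il6ra, Il2ra, Il6st and Tgfbr1, at -1.52, -1.45, -1.14, -0.74, -0.57 and -0.52, and as means of probe sets Il6st and Tgfbr1 were not called (-0.31 and 0.22). Chains of the IL-2 receptor moved apart, with the α chain Il2ra at 2083 and 2290 with vehicle and 1221 and 1400 with db-cAMP and the β chain Il2rb at 846 and 1214 with vehicle and 2593 and 3119 with db-cAMP. In the JAK, STAT, SOCS and PIM list 14 of 30 rose (46.7%) and 5 fell (16.7%, below the 18.6% of all genes). As the mean of probe sets or without the intensity trend 3 falls were called. Stat4, which transmits the IL-12 signal, gave 1491 and 1566 with vehicle and 8276 and 8666 with db-cAMP, Stat3, which transmits IL-6 and related signals, 1177 and 1150 with vehicle and 5955 and 6292 with db-cAMP, and the kinase Jak2 2887 and 3081 with vehicle and 8296 and 7788 with db-cAMP. The feedback inhibitor Socs3 rose by 2.68 ± 0.15 and Socs1 by 0.99 ± 0.18. Among the PIM kinases Pim1 rose by 0.78 ± 0.076 and Pim3 stood at -1.20 ± 0.086.

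Lineage regulators split, 10 higher and 11 lower of 28, with 7 falls called as the mean of probe sets. Satb1, an organiser of chromatin in T cells, gave 6488 and 6523 with vehicle and 23050 and 27193 with db-cAMP. Eomes, Rora and Gata3, regulators of cytotoxic, Th17 and Th2 programmes, rose by 1.59, 1.43 and 1.28 on the log2 scale, and Bcl6, the regulator of follicular helper cells, by 1.04. Falls beside Hivep3 were led by Id3, at 2347 and 1874 with vehicle and 422 and 463 with db-cAMP. Id3 inhibits E proteins, and its relative Id2 rose by 1.04 ± 0.097.

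Costimulatory and coinhibitory receptors were lower in 15 of 30 cases (50%, against 18.6% of all genes) and higher in 6 (20%, against 16.4%). Vsir, the checkpoint receptor VISTA, gave 3198 and 2988 with vehicle and 624 and 680 with db-cAMP, and Btla, another inhibitory receptor, gave 6864 and 6504 with vehicle and 1788 and 1854 with db-cAMP. Pdcd1lg2, the PD-1 ligand PD-L2, stood at -2.03 ± 0.12 on the log2 scale and Slamf1 at -1.77 ± 0.076. Receptors of the SLAM family accounted for several falls, with Ly9 and Cd48 at -1.23 and -0.79. Against these, Ctla4, the inhibitory receptor that competes with CD28, gave 1328 and 1571 with vehicle and 2908 and 2882 with db-cAMP. Cd86, a ligand of CTLA-4 and CD28, rose by 1.16, not called when vehicle replicate 1 (1.18), vehicle replicate 2 (1.14), db-cAMP replicate 1 (1.44) or db-cAMP replicate 2 (0.88) of WT was omitted, nor with either knockout db-cAMP array omitted. Checkpoint genes did not share a direction, with Ctla4 and Icos higher and Lag3 and Cd160 lower, at -0.97 and -1.08.

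Genes of quiescence and homing were mostly higher, 23 of 29 (79.3%, against 16.4% of all genes), and 3 were lower, with a median log2 change of 1.06. Ccr7, which guides T cells into lymph nodes, gave 19514 and 20819 with vehicle and 71882 and 80722 with db-cAMP, and S1pr1, which lets them leave, gave 235 and 226 with vehicle and 749 and 861 with db-cAMP. Tsc22d3 (GILZ), the cyclin-dependent kinase inhibitor Cdkn1b (p27) and the antiproliferative factor Tob1 rose by 2.28 ± 0.20, 1.93 ± 0.13 and 1.71 ± 0.095 on the log2 scale, and Tob1 was not called as the mean of its probe sets (0.67). The members that fell were Slfn2, needed for quiescence, Foxp1 and Bach2, at -1.40 ± 0.075, -1.03 ± 0.089 and -0.57 ± 0.076. Of 21 chemokine and sphingosine phosphate receptors 6 rose and 1 fell. P2ry10, a receptor for lysophospholipids, gave 2964 and 2928 with vehicle and 16480 and 17798 with db-cAMP. The fall was that of Gpr183, which senses oxysterols, at -0.28, not called when vehicle replicate 1 (-0.16), db-cAMP replicate 1 (-0.24) or db-cAMP replicate 2 (-0.32) of WT was omitted, nor with either knockout db-cAMP array omitted. Integrin and adhesion genes rose in 13 of 26 cases and fell in 4, and 7 rises were called as the mean of probe sets and 8 without WT vehicle replicate 2, and 2 of the falls as the mean of probe sets, without the intensity trend or without WT db-cAMP replicate 2. Emb (embigin), Cd24a and Itga6 rose by 2.07 ± 0.11, 1.73 ± 0.096 and 1.05 ± 0.100. The chains of LFA-1, Itgal and Itgb2, fell together, at -0.50 ± 0.089 and -0.48 ± 0.083 (limma adjusted p = 0.00054 and 0.000458).

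Interferon-induced genes were higher as well. Of 31 IFN-γ induced genes 22 rose (71%) and 2 fell, with a median log2 change of 0.78, and of 31 antiviral genes of the type I interferon response 13 rose (41.9%) and 2 fell, with a median of 0.6. Igtp and Irgm2, immunity-related GTPases, gave 12306 and 13173 with vehicle and 50481 and 57600 with db-cAMP and 1298 and 1412 with vehicle and 6160 and 5844 with db-cAMP, and the guanylate-binding protein Gbp2 gave 6960 and 8103 with vehicle and 24290 and 25753 with db-cAMP. Ifit1, an antiviral RNA-binding protein, was dim with vehicle and rose to 601 and 530 from 63.3 and 23.4, and the deubiquitinating enzyme Usp18 rose from 136 and 215 to 1679 and 1461. Samhd1, which depletes nucleotides, and the nucleic acid sensor Zbp1 rose by 1.71 ± 0.079 and 1.83 ± 0.19 on the log2 scale. The IFN-γ induced genes that fell were Mthfd2, a mitochondrial folate enzyme, at -0.42 and Cd274 (PD-L1), at -0.32, the latter not called when vehicle replicate 1 (-0.29) or db-cAMP replicate 1 (-0.29) of WT was omitted. The antiviral genes that fell were Ifi203, of the IFI200 family, which gave 75.5 and 85.7 with vehicle and 29.7 and 17.7 with db-cAMP (log2 -1.59 ± 0.54, limma adjusted p = 0.0362), and the RNA sensor Ifih1, at -0.57. Ifi203 was not called when vehicle replicate 1 (-1.68), vehicle replicate 2 (-1.50) or db-cAMP replicate 2 (-1.29) of WT was omitted, nor with knockout vehicle replicate 2 or either knockout db-cAMP array omitted, and Ifih1 was not called when vehicle replicate 1 (-0.50) or db-cAMP replicate 2 (-0.47) of WT was omitted. As the mean of probe sets 8 antiviral genes were called higher. MHC class I and antigen processing genes rose in 13 of 18 cases and fell in 2 (1 with db-cAMP replicate 1 of WT omitted), by less than 2-fold throughout, with H2-K1, an MHC class I heavy chain, at 35739 and 38396 with vehicle and 50019 and 56350 with db-cAMP and the peptide transporter Tap1 at 3280 and 2853 with vehicle and 5572 and 5921 with db-cAMP, a call lost as the mean of its probe sets (0.82).

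The interferon-stimulated response element, searched on both strands as GAAA, any 2 bases and GAAA again, stood in the promoters of 13 of 23 antiviral genes with a promoter in the table (56.5%) and of 9 of 25 IFN-γ induced genes (36%), against 3.67% of all genes tested. Such elements are what these genes are known for, so the shares describe the lists and not their response. By response, 3.98% of promoters of genes called higher by 2-fold or more held it, 3.05% of those not called and 2.68% of those called lower by 2-fold or more. The windows of 5 genes that rose are shown with the element in capitals, chosen after their values were seen, beside Ifi203, which holds it and fell, and Oas3, an antiviral gene that holds it and did not pass the test. Bst2 and Ifit3, other antiviral genes, also held it and were not called, at -0.16 and 0.58 on the log2 scale.
Igtp, GRCm38.p6 chr11:58199496-58199555, plus strand: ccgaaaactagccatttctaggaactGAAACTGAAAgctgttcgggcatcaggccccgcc
Irgm2, GRCm38.p6 chr11:58214887-58214946, plus strand: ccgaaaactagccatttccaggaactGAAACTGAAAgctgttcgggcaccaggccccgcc
Gbp2, GRCm38.p6 chr3:142620578-142620637, plus strand: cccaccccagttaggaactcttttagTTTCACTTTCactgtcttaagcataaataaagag
Cxcl10, GRCm38.p6 chr5:92349069-92349128, minus strand: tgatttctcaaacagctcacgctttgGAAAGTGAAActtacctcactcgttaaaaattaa
Ifit1, GRCm38.p6 chr19:34640759-34640818, plus strand: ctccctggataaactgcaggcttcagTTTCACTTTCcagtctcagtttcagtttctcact
Ifi203, GRCm38.p6 chr1:173942494-173942553, minus strand: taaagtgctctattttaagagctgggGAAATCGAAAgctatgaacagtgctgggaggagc
Oas3, GRCm38.p6 chr5:120777701-120777760, minus strand: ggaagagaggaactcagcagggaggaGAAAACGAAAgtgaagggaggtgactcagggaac
The windows of Igtp and Irgm2 were identical at 58 of 60 bases. These genes are close relatives, and whether their probe sets bind each other's transcripts was not tested. Oas3 gave 9.53 and 102 with vehicle and 69.2 and 23.1 with db-cAMP, with overlapping groups.

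Genes that build ribosomes were lower almost without exception. Of 54 ribosome biogenesis and RNA polymerase I genes 49 fell (90.7%, against 18.6% of all genes), 20 of them by 2-fold or more, and 0 rose in limma (0 others were higher at an unadjusted p under 0.05, and 1 rose with vehicle replicate 2 of WT omitted), with a median log2 change of -0.93. Rrp1b, a nucleolar protein, gave 4208 and 4048 with vehicle and 662 and 571 with db-cAMP (log2 -2.74 ± 0.091, limma adjusted p = 2.55e-10). Gnl3, nucleostemin, gave 11978 and 10987 with vehicle and 2764 and 2888 with db-cAMP and Polr1b, a core subunit of RNA polymerase I, gave 1718 and 1763 with vehicle and 568 and 371 with db-cAMP. Ppan and Tsr1, ribosome assembly factors, stood at -1.71 ± 0.090 and -1.53 ± 0.070 on the log2 scale, and Dkc1, a core protein of the small nucleolar particles that modify rRNA, at -1.33. The 5 that were not called included Npm1 and Ncl, abundant nucleolar proteins, at 0.18 ± 0.093 and -0.19 ± 0.075 (limma adjusted p = 0.175 and 0.0634).

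Other growth genes were lower by smaller steps. Mitochondrial ribosomal proteins fell in 42 of 63 cases and rose in 0 in limma (0 others higher at an unadjusted p under 0.05), with a median log2 change of -0.34, led by Mrps18b at -1.07 ± 0.10. Aminoacyl-tRNA synthetases fell in 15 of 21 cases and rose in 0 in limma (1 other higher at an unadjusted p under 0.05, and 1 called with the replicate block or with db-cAMP replicate 1 of WT omitted), with a median log2 change of -0.31. Yars, the tyrosyl-tRNA synthetase, stood at -0.98 ± 0.11, and 9 falls were called without the intensity trend. Among 35 translation initiation factors 15 fell (42.9%) and 5 rose (14.3%, below the 16.4% of all genes). Eif2b3 and Eif1a stood at -1.23 and -1.11, and the translation inhibitor Pdcd4 was higher by 0.62 ± 0.080. Without the trend 7 of these falls were called, and the rises numbered 2 or 3 without the trend, after quantile normalization, as the mean of probe sets or without WT db-cAMP replicate 2. Cytosolic ribosomal proteins stood higher in 17 of 34 cases by small amounts (median log2 change 0.25, and -0.003 after quantile normalization, 0.41 without WT db-cAMP replicate 1 and 0.13 without WT db-cAMP replicate 2), and Rpl12 fell, at -1.06. That count is not firm, since 0 were called higher after quantile normalization or without the trend, 1 with the WT arrays alone, as the mean of probe sets, or with either vehicle replicate 1 or db-cAMP replicate 2 of WT omitted, and 28 without WT db-cAMP replicate 1.

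**Figure D4:**
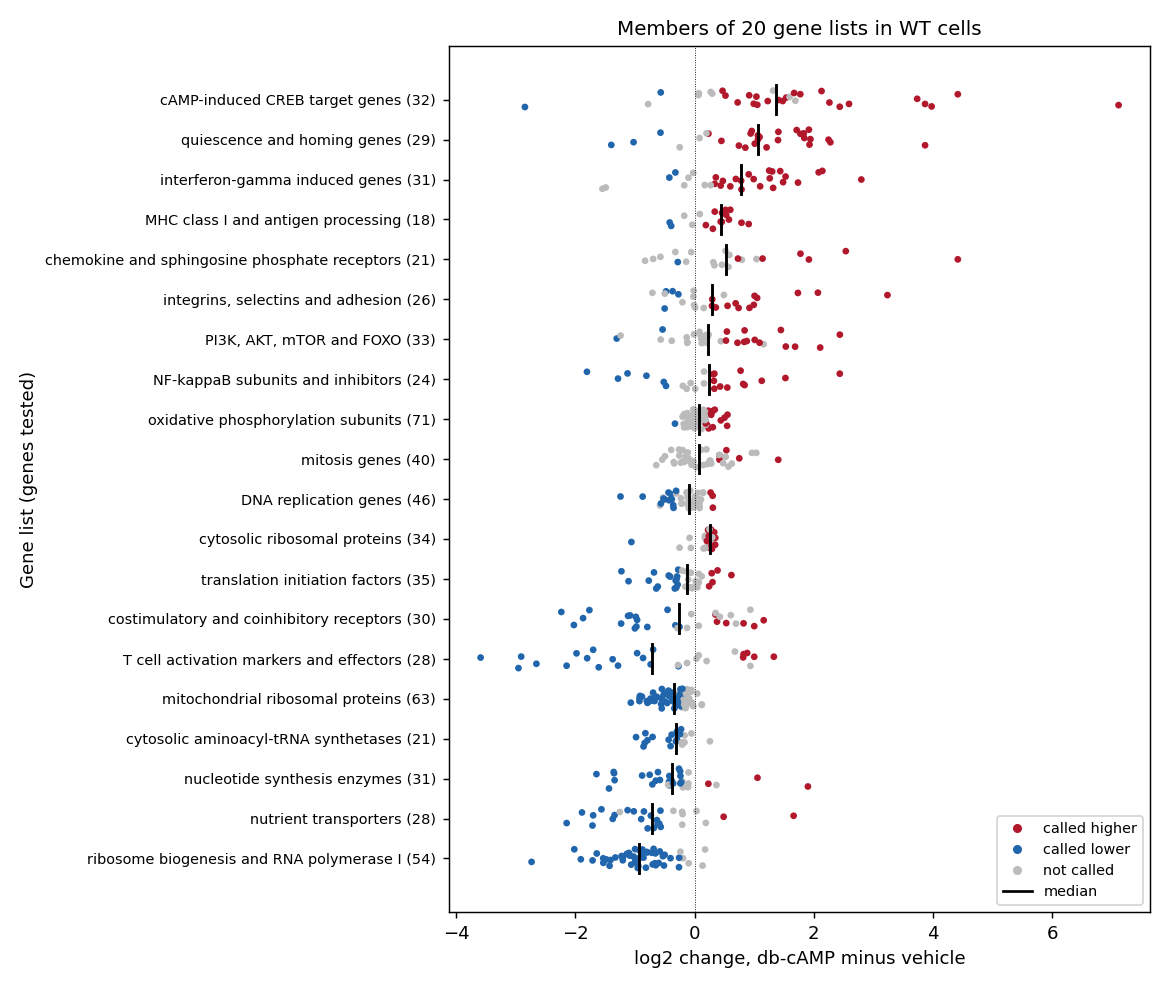
Log2 change, db-cAMP minus vehicle, of each tested member of 20 gene lists, with the number tested in brackets, red for called higher, blue for called lower and grey for not called, and a black line at the list's median. Medians run from 1.36 for CREB targets to -0.93 for ribosome biogenesis, and vertical scatter within a row has no meaning.

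Genes of the MYC network changed both ways. Myc, a driver of growth and ribosome production, gave 9547 and 10396 with vehicle and 2448 and 2587 with db-cAMP (log2 -1.98 ± 0.072, limma adjusted p = 3.55e-10). Of its antagonists, which compete for the shared partner MAX, Mxd1, Mxd4 and Mxi1 rose. Mxd1 gave 146 and 236 with vehicle and 1952 and 1693 with db-cAMP. Mxd4 gave 145 and 206 with vehicle and 999 and 1023 with db-cAMP, and Mxi1 gave 333 and 272 with vehicle and 1223 and 1252 with db-cAMP. Of the polyamine enzymes in the list, Srm, spermidine synthase, gave 14468 and 13140 with vehicle and 4904 and 4359 with db-cAMP, whereas Odc1, ornithine decarboxylase, rose from 22863 and 21923 to 46361 and 52085. Of 16 network genes 4 rose (25%), which were Mxd1, Mxd4, Mxi1 and Odc1, and 8 fell (50%). No other antagonist in the list was called higher.

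MYC and MAX bind the E-box CACGTG, a palindrome that reads the same on both strands. It stood in 15.9% of promoters of genes called lower by 2-fold or more, 13% of those lower by under 2-fold, 8.88% of those not called, 9.36% of those higher by under 2-fold and 7.07% of those higher by 2-fold or more, against 9.69% over the genes tested and 7.15% over all promoters in the table. CTCGAG, a palindrome of the same base content that was added as a comparison after the E-box shares had been seen, stood in 5.36%, 7.52%, 5.23%, 5.54% and 3.98% of these groups in the same order. Mean GC content was 59.5% for promoters of the larger falls and 61.6% for those of the larger rises, with 19.3 and 20.4 CpG dinucleotides per promoter. Of 48 ribosome biogenesis genes with a promoter 10 held the E-box (20.8%), against 11.5% of all genes tested. Counted by gene in the same way, it stood in 18.9% of genes called lower by 2-fold or more and 14.7% of those lower by under 2-fold. The share of the ribosome biogenesis list is therefore near that of the larger falls. The windows of Nop2, a nucleolar RNA methyltransferase, and Rrn3, the initiation factor of RNA polymerase I, are shown with the E-box in capitals, chosen after the values were seen.
Nop2, GRCm38.p6 chr6:125131797-125131856, plus strand: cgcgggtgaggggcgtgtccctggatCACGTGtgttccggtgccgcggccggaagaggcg
Rrn3, GRCm38.p6 chr16:13780625-13780684, plus strand: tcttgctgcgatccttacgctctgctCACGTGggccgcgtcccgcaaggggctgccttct
Nop2 stood at -1.41 ± 0.11 and Rrn3 at -1.02 ± 0.11 on the log2 scale, and no test was made of the difference in shares. Binding of MYC, its antagonists or any other factor to these promoters was not measured.

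**Figure D5:**
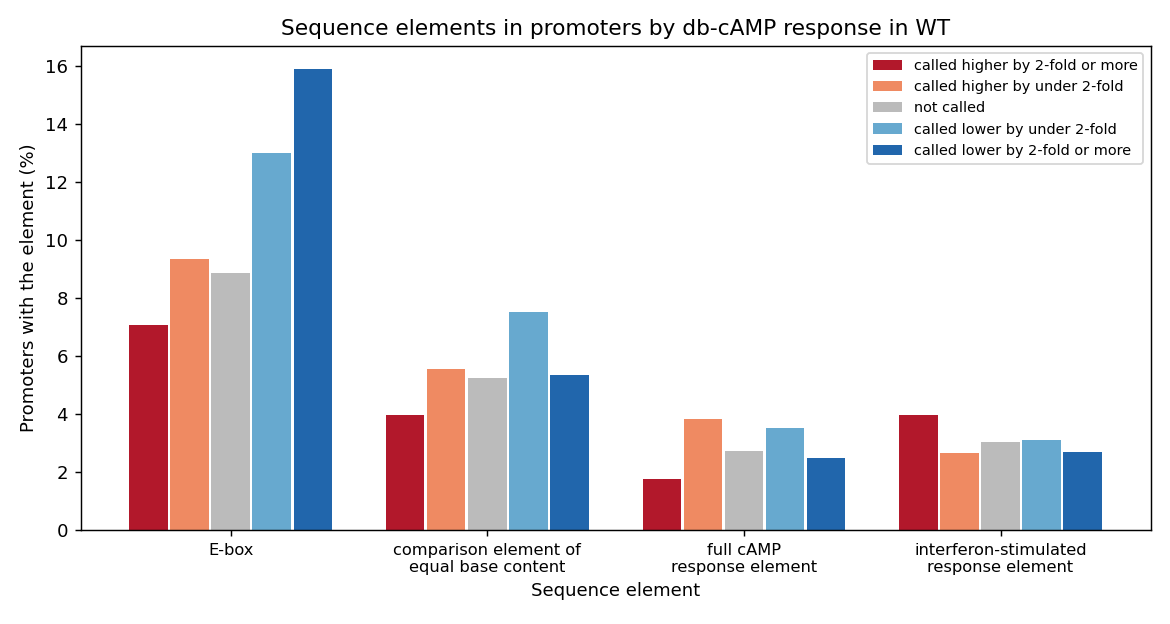
Percentage of promoters (250 bases before to 50 after each start) that hold the E-box, its comparison letters, the full cAMP response element or the interferon-stimulated response element on either strand, for genes grouped by their response to db-cAMP. The E-box bars run from 7.07% for genes called higher by 2-fold or more to 15.9% for genes called lower by 2-fold or more, and the bars of the other 3 elements drawn stay between 1.77% and 7.52%.

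Nutrient supply and nucleotide synthesis were lower too. Of 28 nutrient transporters 19 fell and 2 rose, with a median log2 change of -0.71, and as the mean of probe sets 11 falls were called with a median of -0.39. Slc7a5, the light-chain subunit of the large neutral amino acid transporter, gave 3544 and 3552 with vehicle and 933 and 679 with db-cAMP, and Slc29a1, a nucleoside transporter, gave 1770 and 1456 with vehicle and 334 and 550 with db-cAMP. The mitochondrial folate carrier Slc25a32, the plasma membrane folate carrier Slc19a1 and the glutamine transporter Slc1a5 stood at -1.71, -1.37 and -1.02 on the log2 scale. The rises were Slc16a3, a lactate exporter, at 1.66, not called when vehicle replicate 1 (1.85), vehicle replicate 2 (1.47) or db-cAMP replicate 2 (1.05) of WT was omitted, and the zinc transporter Slc39a4, at 0.49, not called when vehicle replicate 1 (0.45), vehicle replicate 2 (0.53), db-cAMP replicate 1 (0.55) or db-cAMP replicate 2 (0.42) of WT was omitted, nor with either knockout db-cAMP array omitted. Nucleotide synthesis enzymes fell in 21 of 31 cases and rose in 3 (median -0.38). Shmt1, which feeds one-carbon units, gave 3257 and 3005 with vehicle and 861 and 1149 with db-cAMP, Ppat, the first committed enzyme of purine synthesis, gave 3863 and 3627 with vehicle and 1453 and 1473 with db-cAMP, and Dhodh, of pyrimidine synthesis, gave 1496 and 1384 with vehicle and 561 and 496 with db-cAMP. The CTP synthases moved apart, with Ctps at 3176 and 2961 with vehicle and 1183 and 1229 with db-cAMP and Ctps2 at 749 and 829 with vehicle and 3080 and 2842 with db-cAMP, and Ctps2 was not called as the mean of its probe sets (0.78). The salvage enzyme Dck, deoxycytidine kinase, rose by 1.05 ± 0.083.

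Genes of energy metabolism were called at single steps. Of 26 glycolysis genes 7 rose (26.9%) and 3 fell (11.5%, below the 18.6% of all genes). Without the intensity trend 4 rises were called. Hk2, hexokinase 2, gave 1580 and 1564 with vehicle and 413 and 333 with db-cAMP, while Pfkfb4, which makes an activator of phosphofructokinase, rose from 58.3 and 141 to 735 and 549 and Hif1a from 14436 and 14643 to 33135 and 38189. Oxidative phosphorylation subunits stood close to 0 (median log2 change 0.07, and -0.03 after quantile normalization), 13 higher (18.3%, near the 16.4% of all genes) and 1 lower of 71, and 10 were lower after quantile normalization. Between 3 and 6 of those rises were called after quantile normalization, without the trend, or with either vehicle replicate 1 or db-cAMP replicate 2 of WT omitted. Of 6 pentose phosphate genes 2 fell (1 with vehicle replicate 1 or db-cAMP replicate 2 of WT omitted), among them Rpia at -0.81 on the log2 scale. Cholesterol and fatty acid synthesis genes fell in 13 of 34 cases (38.2%) and rose in 5 (14.7%, below the 16.4% of all genes). Lss, Hsd17b7 and Sqle, enzymes of sterol synthesis, and Fasn, fatty acid synthase, stood at -1.41 ± 0.17, -1.30 ± 0.19, -1.10 ± 0.12 and -1.24 ± 0.13, and the acetyl-CoA synthetase Acss2 rose by 1.76 ± 0.18. As the mean of probe sets, or without replicate 1 of either WT group, 3 of these rises were called. Stress response genes were lower in 14 of 36 cases (38.9%, and 9 genes without the trend) and higher in 7 (19.4%, near the 16.4% of all genes). The serine and asparagine synthesis genes Psat1 and Asns stood at -0.71 and -0.73, whereas Eif2ak3, the endoplasmic reticulum kinase PERK, and Edem1, of protein quality control, rose by 1.91 ± 0.14 and 1.55 ± 0.079.

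Among cell cycle genes the called changes ran both ways. Of 33 G1 cyclin, CDK and inhibitor genes 10 rose (30.3%) and 5 fell (15.2%, below the 18.6% of all genes). Inhibitors of cyclin-dependent kinases rose, with Cdkn1b at 492 and 465 with vehicle and 1937 and 1743 with db-cAMP, and Cdkn1c, Cdkn2d and Cdkn2c at 1.92, 1.21 and 0.70 on the log2 scale. The kinases Cdk6 and Cdk4, the cyclin Ccnd2 and the transcription factor E2f3 fell, at -1.09, -0.76, -0.55 and -1.14. DNA replication genes fell in 12 of 46 cases (26.1%) and rose in 3 (6.52%, and 1 with replicate 1 of either WT group omitted), with Orc2, of the origin recognition complex, at 1753 and 1852 with vehicle and 711 and 806 with db-cAMP. Mitosis genes were called higher in 5 of 40 cases (12.5%, below the 16.4% of all genes) and lower in 0 in limma (0 others were lower at an unadjusted p under 0.05, and 1 fell with db-cAMP replicate 2 of WT omitted), and 3 rises were called as the mean of probe sets or without WT db-cAMP replicate 2. Ndc80, of the kinetochore, rose by 1.40 ± 0.26 and Pttg1, securin, by 0.75 ± 0.071.

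Survival and death genes showed 10 rises (32.3%, against 16.4% of all genes) and 4 falls (12.9%, below the 18.6% of all genes) of 31. As the mean of probe sets 1 fall was called, and without the intensity trend 2. Bid, a pro-apoptotic BH3-only protein, gave 1709 and 1494 with vehicle and 410 and 366 with db-cAMP, while the survival factor Mcl1 rose from 15645 and 13856 to 21150 and 24720. Apaf1, which assembles the apoptosome, rose by 0.86 ± 0.13 on the log2 scale. Genes of mRNA decay and antiproliferative BTG and TOB factors rose in 9 of 34 cases and fell in 2 (1 with either WT vehicle array omitted and 4 with db-cAMP replicate 1 of WT omitted), with Zfp36, which destabilises cytokine mRNA, at 0.80 ± 0.100. Of 15 granule genes 4 rose (26.7%) and 2 fell (13.3%, below the 18.6% of all genes). Serpinb9, an inhibitor of granzyme B, gave 1106 and 1378 with vehicle and 5375 and 5243 with db-cAMP, Gzmb rose by 1.01 ± 0.12 and Nkg7, a granule membrane protein, stood at -1.01 ± 0.17. The summed signal of NK cell markers stood higher on the db-cAMP arrays, as given above. Of the 4 tested, 1 was called higher and 3 were not called. Whether NK cells played a part in the granule genes was not tested. Of 20 clock genes 7 rose (35%) and 4 fell (20%, near the 18.6% of all genes). Nfil3 and Bhlhe40 rose by 1.48 and 0.94, and Npas2, a partner of BMAL1, fell with Per2, at -2.32, though not as the mean of its probe sets (-1.35). Chromatin modifiers rose in 13 of 37 cases (35.1%) and fell in 7 (18.9%, near the 18.6% of all genes). The histone demethylases Kdm6b and Kdm3a moved apart, at -1.61 ± 0.11 and 1.04 ± 0.11, and the class IIa deacetylase Hdac7 stood at -1.61 ± 0.10.

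Where a gene had more than the probe set used, the others mostly pointed the same way. For genes called higher by 2-fold or more, 542 further probe sets of 324 genes were tested. Of these, 91.3% had the same sign, 334 had the same call and 0 were called the opposite way. For genes called lower by 2-fold or more, the figures were 387 probe sets of 245 genes, 84.8%, 196 and 1. Over all genes called higher, 863 of 2187 further probe sets had the same call and 26 the opposite call. Over all genes called lower, 838 of 2259 had the same call and 19 the opposite call. Of 142 called genes named here that had another tested probe set, 15 had at least 1 of the opposite sign. Besides Hivep3 these included Ptpn6 and Il2ra, whose 1 other probe set stood at 0.20 and 0.03 on the log2 scale, and Crem, Mxd4, Kdm6b and Cdk6, whose other probe sets ran from -0.04 to 3.99, -1.07 to 3.59, -1.27 to 0.33 and -1.65 to 0.16.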

How the data were processed

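RNA of CD4 T cells was measured on Affymetrix arrays, one per sample. The deposited values are linear intensity signals per probe set, which the authors made with MAS5, per the submitters' processing notes. The values themselves show a common trimmed mean on each array. Which MAS5 version and settings were used is not stated in the labels. Of 45101 probe sets, 34945 carried one gene symbol, 932 several and 9160 none, and 64 were controls. For each of 18193 genes the probe set with the highest mean over the 8 arrays was used, and 12091 genes with a signal above the array median on at least 2 arrays were tested. The 10th percentile of all values, 5.48, was added before log2, so fold changes are on the log2(signal + 5.48) scale and understate those of dim genes. limma 3.58.1 in R 4.3.3 was fitted with 1 term per group over all 8 arrays and an intensity trend, and p-values were adjusted by Benjamini-Hochberg over 12091 genes with a threshold of 0.05. The model had 4 residual degrees of freedom. The labels of the 4 IFN-γ receptor arrays disagree, with descriptions naming wild type and titles and genotype naming the knockout, and the titles were followed.

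The gene lists and the comparison were chosen with earlier results of these data known. Genes named are list members, the 25 largest rises and the 25 largest falls, and genes with probe sets called in opposite directions. Within the lists the examples were picked after their values were seen and favour genes whose call held when single arrays were left out, apart from members that went against their list's direction, so they do not measure how stable calls are. The comparison letters for the E-box were also added later. Simulated data of 12091 genes with normal noise held 335 changes of 1.5-fold, 335 of 2-fold and 330 of 4-fold over 5 runs. Of these, 43.6%, 62.7% and 82.7% were recovered, and 6.4% of calls were false. Changed genes were a far smaller share there than the 35% called in the data. The cutoff depends on that share, so these rates may not carry over to this comparison. The small number of arrays limits the precision. Alternatives covered the arrays fitted, a replicate block, the offset, the normalization, the filter, the summary of probe sets, the intensity trend and leaving out each array. Same-numbered WT arrays did not deviate together (correlation 0.0108).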

Additional observations from a re-analysis of the deposited data

How the results depend on the processing

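Over 19 alternatives the counts of genes called by limma kept within 1.5 times of 1984 higher and 2249 lower, except that the mean of all probe sets per gene gave 1494 lower, of which 1377 were also called with the brightest probe set. That setting called 1346 genes higher, 1243 of them shared. Leaving out each array in turn gave 1584 to 1939 genes higher, 1809 to 2190 lower, 575 to 714 higher by 2-fold or more and 513 to 700 lower by 2-fold or more. With 1 array left in a group, the lone array is assumed to vary like the others. The replicate block gave 1984 higher and 2252 lower, with 1897 and 2178 shared, and the arrays share only a number. A fit to the 4 WT arrays alone gave 1755 higher and 1946 lower. Among genes named in the report, the sign turned for Ighm (0.25) and Slc2a3 (0.27) as means of probe sets, and for Tgfbr1 (0.22) likewise. Of those not called, it turned for Npm1 after quantile normalization (-0.083), and with single arrays omitted Cd4 ran from -0.38 to 0.28 and Oas3 from -1.21 to 1.62. The causes were not tested. Calls were fewest among genes of low signal.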

Other observations

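Probe sets of one gene did not always move together. In 44 genes, probe sets were called in both directions by limma. The widest gap was that of Rragd, a GTPase that signals amino acid supply to mTORC1. One of its probe sets gave 6.85 and 6.01 with vehicle and 98.3 and 73.4 with db-cAMP (log2 change 2.93 ± 0.97), and another gave 120 and 151 against 60.6 and 37.6 (-1.39 ± 0.35). Pip4k2a, a phosphoinositide kinase, had probe sets at 1.03 ± 0.15 and -1.84 ± 0.47 on the log2 scale. Slc38a10, a transporter of the SLC38 family, had probe sets at 0.77 and -2.86, the kinase Abl2 at 2.46 and -0.48, the centrosomal protein Nin at 0.67 and -2.26 and the peptidase Tpp2 at 2.04 and -0.71.

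Some probe sets without a single gene symbol were called too. Of 4571 tested, 373 were called higher and 274 lower. That is a smaller share than over all probe sets tested, of which 6890 of 26527 were called. One that was called higher gave 197 and 140 with vehicle and 1989 and 1732 with db-cAMP (log2 change 3.44), and the one with the lowest change gave 126 and 113 against 7.88 and 4.54 (-3.43).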
